A study of Homo sapiens with 9 samples.

Results

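The enzymes that build the ganglioside GD2, and those of the branches beside it, were followed across the knockdown of a pair of transcription factors in LAN5 cells, an established human neuroblastoma line with an amplified MYCN gene. The 8 genes (UGCG, B4GALT5, B4GALT6, ST3GAL5, ST8SIA1, ST8SIA5, B4GALNT1 and B3GALT4) were chosen by their place in the pathway and matched by gene symbol. Earlier results of these data were known when they were chosen. All 8 were among the 25084 genes of the deposited table. The 9 libraries formed 3 groups of 3. The first group had received a control siRNA (siCTR), the next an siRNA against MYCN (siMYCN, number 2 in the labels) and the last an siRNA against HAND2 (siHAND2, number 3 in the labels). All groups were electroporated by nucleofection and collected at 72 h. Each target was lowered with 1 siRNA sequence in 1 cell line, so an effect of the sequence itself and an effect of losing the target cannot be told apart. No label says that the 3 libraries of a group came from separate cultures, and p-values then measure the spread between these libraries, which may be technical.

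Gangliosides are lipids of the outer cell surface in which a chain of sugars with sialic acid is carried by ceramide. UGCG adds glucose to ceramide, B4GALT5 or B4GALT6 adds galactose to give lactosylceramide, and ST3GAL5 adds sialic acid to give GM3. At GM3 the route forks: ST8SIA1 adds a further sialic acid to give GD3, from which B4GALNT1 makes GD2, whereas B4GALNT1 acting directly on GM3 makes GM2. B3GALT4 carries GM2 and GD2 on to more complex gangliosides, and ST8SIA5 adds sialic acid on the branches beside GD2. Neuroblastoma cells are known for abundant GD2, which is the target of antibodies used in treatment. MYCN and HAND2 are both basic helix-loop-helix proteins, a family that binds short DNA words of the form CANNTG, called E-boxes. The data are of transcripts, and neither enzyme activity nor GD2 itself was measured.

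Promoter sequences are shown first because both targeted factors bind E-boxes. The RefSeq table (GRCh38.p14) held windows for 4 of the 8 genes (UGCG, B4GALT5, ST3GAL5 and ST8SIA1), and none for B4GALT6, ST8SIA5, B4GALNT1 or B3GALT4. Windows of 250 bases just before the gene start are printed for the first enzyme of the pathway, for the most abundant one and for the GD3 synthase. They lie at chr9:111896564-111896813 on the plus strand (UGCG), chr20:49713879-49714128 on the minus strand (B4GALT5) and chr12:22334708-22334957 on the minus strand (ST8SIA1). The ST8SIA1 start in RefSeq lies inside the range that the deposited table gives for the gene. Capitals mark CANNTG, which reads the same on both strands.
UGCG: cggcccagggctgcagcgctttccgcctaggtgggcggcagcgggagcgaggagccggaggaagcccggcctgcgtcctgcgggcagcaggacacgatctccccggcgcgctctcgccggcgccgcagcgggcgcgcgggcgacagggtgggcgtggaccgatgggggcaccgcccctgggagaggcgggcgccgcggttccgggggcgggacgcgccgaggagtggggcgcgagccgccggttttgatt
B4GALT5: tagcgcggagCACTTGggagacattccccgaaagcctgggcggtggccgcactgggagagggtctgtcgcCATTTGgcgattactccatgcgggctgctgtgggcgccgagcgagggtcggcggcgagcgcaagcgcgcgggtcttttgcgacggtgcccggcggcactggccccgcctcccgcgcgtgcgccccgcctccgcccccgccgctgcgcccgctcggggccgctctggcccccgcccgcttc
ST8SIA1: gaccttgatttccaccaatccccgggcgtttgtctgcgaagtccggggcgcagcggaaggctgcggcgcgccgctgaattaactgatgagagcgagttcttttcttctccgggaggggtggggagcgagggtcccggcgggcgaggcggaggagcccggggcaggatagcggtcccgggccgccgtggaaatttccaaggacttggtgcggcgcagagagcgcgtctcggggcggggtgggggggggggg

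The B4GALT5 window held 2 E-boxes, starting 240 and 180 bases before the gene start, and the UGCG and ST8SIA1 windows held 0. None of the 3 printed windows held CACGTG, the form preferred by MYC proteins with MAX, or CATCTG (or its reverse complement CAGATG), a form bound by HAND proteins. Both of those words are themselves CANNTG words. Of 35116 windows of the same length in the table, 61.8% held CANNTG, 6.345% held CACGTG and 12.2% held CATCTG on either strand. ST3GAL5 had 5 windows from different start sites, of which 1 held CATCTG, 27 bases before its start, and another held 2 CANNTG words, 244 and 91 bases before its start. These matches describe letters in a window and say nothing of binding.

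The values are CPM, a gene's reads scaled to a common total per library. Judged from the spacing of low CPM values, each library held 21.1 M to 32.7 M assigned reads, and at 1 CPM the coefficient of variation from counting was 17.5% to 21.8%. Both siRNAs lowered their own target. MYCN stood at 70.0% of its control mean in siMYCN and at 49.6% in siHAND2. HAND2 stood at 113.9% and 54.2%, so the siHAND2 libraries were low in both factors, and lower in MYCN than the siMYCN libraries (877 to 969 against 1245 to 1338 CPM). MYCN shares part of its locus with MYCNOS on the opposite strand, and the use of strand in counting is not given in the sources used here. All 8 neuroblastoma markers (DBH, TH, DDC, CHGA, CHGB, STMN2, ELAVL4 and SLC18A1) were above 1 CPM in at least 1 library, with a summed level of 2075 to 2214 CPM in the control libraries, 2630 to 2714 in siMYCN and 2117 to 2221 in siHAND2. Single markers went different ways: 7 of the 8 were called higher in siMYCN (test given below), where 24.5% of all tested genes were. In siHAND2 STMN2 was called higher (0.95) and DBH, TH, DDC and SLC18A1 lower (-1.01, -0.70, -0.25 and -0.75). Over all tested genes, 18.1% were called higher and 11.8% lower in siHAND2. Of 5 blood cell markers, 1 (PTPRC) had a row, and it stayed under 0.071 CPM; the 4 Schwann cell markers summed to 1.80 to 2.69 CPM, and 6 endothelial and epithelial markers, of which 4 had a row, to 3.31 to 5.14 CPM over all libraries. The 7 mesenchymal markers summed to 619 to 661 CPM in the control libraries, 839 to 878 in siMYCN and 1147 to 1290 in siHAND2, most of it VIM. Of the 5 that were tested, 4 were called higher in siMYCN (SNAI2 was not) and 5 in siHAND2, beside 24.5% and 18.1% over all tested genes. COL1A1 and PRRX1 were under 1 CPM in every library. The part of either marker list in the results below was not tested. The third siHAND2 library stood somewhat apart: across genes it correlated with its group at 0.994 and 0.995, while the other pair of that group reached 0.998.

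In control cells the levels of the enzymes were set side by side per kb of transcript (the Ensembl canonical transcript), since longer transcripts yield more reads. B4GALT5 was highest at 25.8 ± 0.594 CPM per kb, followed by UGCG at 11.5 ± 0.0890 and B4GALNT1 at 9.47 ± 0.2997. ST3GAL5 stood at 4.79 ± 0.0323 CPM per kb. ST8SIA1 (2.56 ± 0.0863) and B4GALT6 (2.49 ± 0.109) had overlapping libraries and could not be ranked. B3GALT4 was low at 0.590 ± 0.225 and ST8SIA5 nearly absent at 0.00498 ± 0.00435 CPM per kb (SD, n = 3 libraries for each level). When the length of all exons merged was used instead, ST3GAL5 came to 1.28, ST8SIA1 to 1.71 and B4GALT6 to 2.25 CPM per kb, so the order of these 3 depends on the transcript that LAN5 cells use. B4GALT5, UGCG and B4GALNT1 kept the top places under both lengths. In siCTR, B4GALT6 made up 8.79 ± 0.3002% of the summed CPM per kb of the 2 lactosylceramide synthases.

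**Figure D1:**
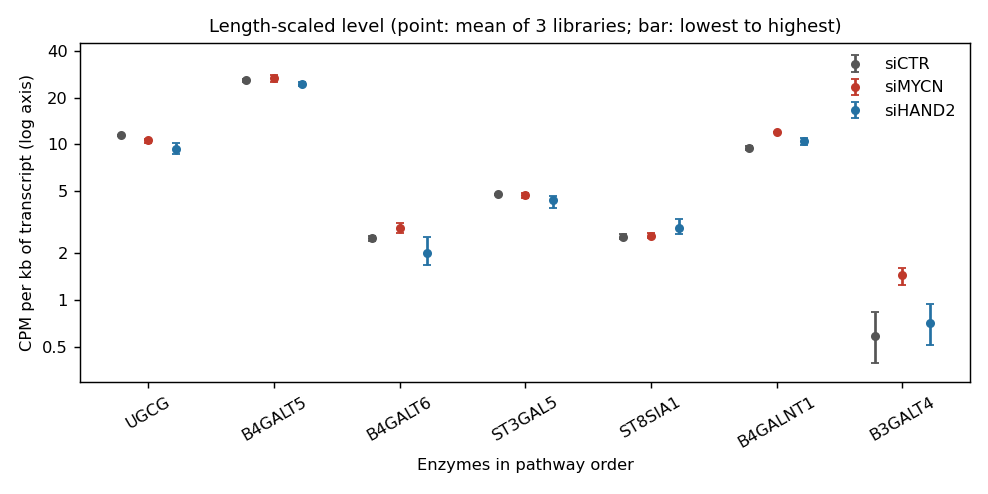
CPM per kb of canonical transcript (log axis) for the 7 enzymes above the detection filter, in pathway order, in siCTR, siMYCN and siHAND2; points are means of 3 libraries and bars run from the lowest to the highest library. B4GALT5, UGCG and B4GALNT1 lie highest and B3GALT4 lowest in every group; ST8SIA5, at no more than 0.0142 CPM per kb in any library, is not drawn.

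Changes were tested with limma on log2(CPM + 1) over the 14495 genes that reached 1 CPM in 3 or more libraries, with Benjamini-Hochberg adjustment over those genes and a threshold of 0.05. Fold changes are on that log2 scale, which understates the change of low genes. ST8SIA5 did not reach the filter, and 7 of the 8 enzymes were tested. In siMYCN against siCTR, 2 of the 7 were called, both higher, where 35.9% of all tested genes were called (24.5% higher and 11.4% lower). Higher genes were 68.3% of those calls, but 51.1% once rescaled by median ratios and 49.3% once quantile-normalized. In siHAND2 against siCTR, 1 was called higher and 2 lower, against 29.9% of all tested genes (18.1% higher and 11.8% lower). There the higher genes were 60.6% of the calls, and 47.1% and 47.8% after those rescalings. In siHAND2 against siMYCN, 4 were called, all lower, against 26.9% of all tested genes (11.4% higher and 15.5% lower). The 3 libraries of the groups did not overlap for 4 of the 7 enzymes in siMYCN against siCTR, 5 in siHAND2 against siCTR and 4 in siHAND2 against siMYCN. Over all tested genes this held for 49.5%, 42.4% and 38.7%. The median log2 change over the 7 enzymes was 0.04, -0.09 and -0.18 in the 3 comparisons, beside 0.06, 0.04 and -0.006 over all tested genes. The 2 comparisons against siCTR share their control libraries. Since the enzymes were chosen with earlier results of these data known, these counts and medians describe the 7 enzymes only. In bulk RNA, fewer cells that express a gene and less of its RNA per cell cannot be told apart.

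**Figure D2:**
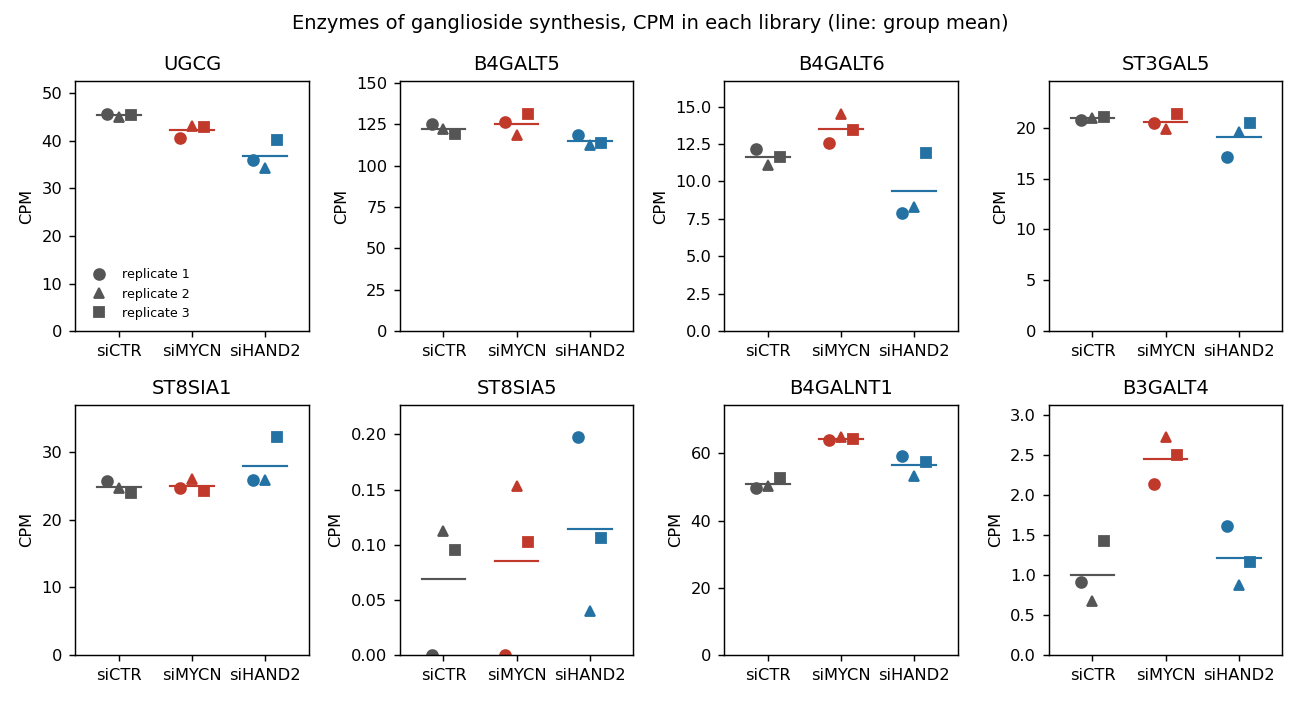
CPM (linear axis from 0) of each of the 8 enzymes in each of the 9 libraries; marker shape gives the replicate number and the line the group mean. B4GALNT1 and B3GALT4 are higher in all 3 siMYCN libraries than in any siCTR library, UGCG is lower in all 3 siHAND2 libraries, and ST8SIA5 stays under 0.20 CPM throughout.

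UGCG (chromosome 9, 111896814 to 111935369) commits ceramide to the glycolipid route. It measured 45.64, 44.96 and 45.46 CPM in the control libraries, 40.6, 43.0 and 42.9 in siMYCN, and 35.9, 34.3 and 40.1 in siHAND2. All siHAND2 libraries lay below all siMYCN libraries, which in turn lay below all siCTR libraries. UGCG fell in siHAND2 to 81.1% of the siCTR mean, a log2 change of -0.30 (standard error 0.06, adjusted p = 0.000898), and that call held in all 18 alternatives. In siMYCN the change was -0.10 (95% interval -0.22 to 0.02, adjusted p = 0.181). It passed the threshold after median-ratio rescaling (-0.16, adjusted p = 0.0339) and quantile normalization (-0.16, adjusted p = 0.0352), with adjusted p from 0.0339 to 0.404 over all alternatives. The direct difference between siHAND2 and siMYCN was -0.20 (standard error 0.06, adjusted p = 0.0178). That difference was no longer called without siMYCN replicate 2, siMYCN replicate 3 or siHAND2 replicate 2 (-0.18, -0.18 and -0.15).

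B4GALT5 (chromosome 20, 49632945 to 49713878) and B4GALT6 (chromosome 18, 31622247 to 31685836) both make lactosylceramide from glucosylceramide. B4GALT5, the far more abundant of the pair, measured 125, 122 and 119 CPM in the control libraries, 126, 118 and 131 in siMYCN, and 118, 112 and 114 in siHAND2. It was not called in any comparison: the log2 change was 0.04 in siMYCN (95% interval -0.06 to 0.13; -0.02 after either rescaling) and -0.09 in siHAND2 (95% interval -0.18 to 0.01, adjusted p = 0.171). The siHAND2 value was called after median-ratio rescaling (-0.13, adjusted p = 0.0413; range over the alternatives 0.0413 to 0.389). Between siHAND2 and siMYCN it was -0.12 (adjusted p = 0.0567). It was called with the replicate number as a block (adjusted p = 0.0292), without siMYCN replicate 2 (-0.16) and without siHAND2 replicate 1 (-0.15), with adjusted p from 0.0206 to 0.224 over the alternatives.

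B4GALT6 measured 12.1, 11.1 and 11.6 CPM in the control libraries and 12.6, 14.5 and 13.4 in siMYCN. In siHAND2 it measured 7.89, 8.28 and 11.9 CPM, so that replicate 3 lay within the control range and the other pair well below it. The log2 change in siHAND2 was -0.31 (standard error 0.11, adjusted p = 0.0487). It kept its direction in all 18 alternatives but lost its call in 11 of them, with adjusted p from 0.000335 to 0.194. Without siHAND2 replicate 3 it was -0.47 (adjusted p = 0.000335), and without siHAND2 replicate 1 or 2 it was -0.21 or -0.24. The call was also lost without any 1 of the siCTR libraries or without siMYCN replicate 2 or 3. In siMYCN all 3 libraries lay above the controls, with a change of 0.20 (95% interval -0.04 to 0.44, adjusted p = 0.177). That change was called when the siHAND2 group or its replicate 3 was left out (adjusted p = 0.0393 and 0.0363; range 0.0363 to 0.469). The direct comparison put B4GALT6 lower in siHAND2 than in siMYCN by -0.51 (standard error 0.11, adjusted p = 0.00273), with the call made in all 18 alternatives. As a share of the summed CPM per kb of both synthases, B4GALT6 stood at 9.17%, 11.1% and 9.37% in siMYCN and at 6.31%, 6.93% and 9.57% in siHAND2.

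ST3GAL5 (chromosome 2, 85837120 to 85905199), the GM3 synthase, supplies the substrate of both branches. It measured 20.8, 20.9 and 21.1 CPM in the control libraries, 20.4, 19.9 and 21.4 in siMYCN, and 17.2, 19.6 and 20.48 in siHAND2. It was not called in any comparison or alternative. Its log2 change was -0.02 in siMYCN (95% interval -0.17 to 0.12, adjusted p = 0.815) and -0.13 in siHAND2 (95% interval -0.27 to 0.01, adjusted p = 0.154). All 3 siHAND2 libraries lay below the controls, replicate 1 the furthest, and without replicate 1 the change was -0.06.

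ST8SIA1 (chromosome 12, 22063773 to 22437041), the GD3 synthase, opens the branch that leads to GD2. It measured 25.7, 24.7 and 24.0 CPM in the control libraries and 24.8, 26.0 and 24.2 in siMYCN, with full overlap. The change in siMYCN was 0.01 with a 95% interval of -0.15 to 0.17 (adjusted p = 0.934), and its sign turned after both rescalings. In siHAND2 it measured 25.8, 25.9 and 32.2 CPM. The first pair lay just above the highest control and replicate 3 far above. The change of 0.16 (95% interval 0.003 to 0.32, adjusted p = 0.117) was not called, and without siHAND2 replicate 3 it was 0.06 (adjusted p = 0.482). Its deposited range overlaps 1902 bases of CMAS, the gene on the other strand whose enzyme activates sialic acid; CMAS averaged 19.5, 21.4 and 20.1 CPM in the 3 groups and was not called. Among the 11200 genes averaging 5 CPM or more, MED6, PCCA and COMMD3 had patterns most like ST8SIA1 over the 9 libraries (Pearson r of log2(CPM + 1) of 0.960, 0.959 and 0.936). Each of them was highest in siHAND2 replicate 3, as ST8SIA1 was, at 38.7, 32.1 and 29.1 CPM. They were picked for likeness to ST8SIA1 over these same libraries, so neither that nor the high r is a separate result.

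ST8SIA5 (chromosome 18, 46667821 to 46759257) adds sialic acid on neighbouring branches. It was listed at 0 reads (the constant of 0.0001 CPM) in siCTR replicate 1 and siMYCN replicate 1. The highest library was siHAND2 replicate 1 at 0.197 CPM, which stands for about 6 reads. No comparison could be made at this depth.

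B4GALNT1 (chromosome 12, 57623409 to 57633239) makes GD2 from GD3 and GM2 from GM3. It measured 49.7, 50.2 and 52.7 CPM in the control libraries, 64.0, 64.8 and 64.2 in siMYCN, and 59.2, 53.4 and 57.4 in siHAND2. The siMYCN libraries were the highest and lay close together, the siHAND2 libraries lay between, and no 2 groups overlapped. B4GALNT1 rose in siMYCN to 126.6% of the siCTR mean, a log2 change of 0.33 (standard error 0.05, adjusted p = 6.77e-05), in all 18 alternatives. In siHAND2 it rose by 0.15 (standard error 0.05, adjusted p = 0.0264), a call lost in 6 of the 18 alternatives (adjusted p from 0.0124 to 0.102). Those were both rescalings (0.11 and 0.13), no intensity trend, and leaving out siCTR replicate 1, siCTR replicate 2 or siHAND2 replicate 1 (0.14, 0.14 and 0.12). The direct comparison gave -0.18 (standard error 0.05, adjusted p = 0.0112), lost without siHAND2 replicate 2 (-0.14). SLC26A10, on the other strand, overlaps B4GALNT1 by 2743 bases and averaged 1.18, 0.780 and 2.05 CPM in the 3 groups; it was called higher in siHAND2 than in siCTR (0.55, adjusted p = 0.0409). The genes most like B4GALNT1 over the 9 libraries, picked in the same way, were TMEM169, MAP4K2 and PAK1 (Pearson r of 0.982, 0.981 and 0.980). PAK1, a kinase of the actin cytoskeleton, averaged 21.9, 26.6 and 24.2 CPM in the control libraries, siMYCN and siHAND2. These genes were picked for likeness to B4GALNT1 over the same libraries, so neither the r values nor the PAK1 means are a separate result.

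B3GALT4 (chromosome 6, 33277123 to 33284832) extends GM2 and GD2 by galactose. It measured 0.917, 0.674 and 1.42 CPM in the control libraries, 2.134, 2.723 and 2.502 in siMYCN, and 1.61, 0.876 and 1.17 in siHAND2. These values stand for about 18 to 73 reads, and 6 of the 9 libraries reached 1 CPM. The siMYCN libraries lay above all others, while siCTR and siHAND2 overlapped. B3GALT4 rose in siMYCN to 244% of the siCTR mean in CPM; on the log2(CPM + 1) scale the change was 0.80 (standard error 0.15, adjusted p = 0.000758), 1.26 with a pseudocount of 0.1 and 0.31 with one of 5. In siHAND2 it was 0.15 (95% interval -0.18 to 0.48, adjusted p = 0.497), and single libraries moved it: it was 0.03 without siHAND2 replicate 1 or siCTR replicate 2, 0.26 without siHAND2 replicate 2 and 0.30 without siCTR replicate 3. siHAND2 lay below siMYCN by -0.65 (standard error 0.15, adjusted p = 0.0047). The deposited range runs 5725 bases into WDR46 on the other strand, a gene of ribosome production. WDR46 averaged 55.0 ± 0.720 CPM in the control libraries, 38.5 ± 1.74 in siMYCN and 42.1 ± 1.56 in siHAND2 (mean ± SD of 3 libraries), and so moved opposite to B3GALT4 in siMYCN.

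**Figure D3:**
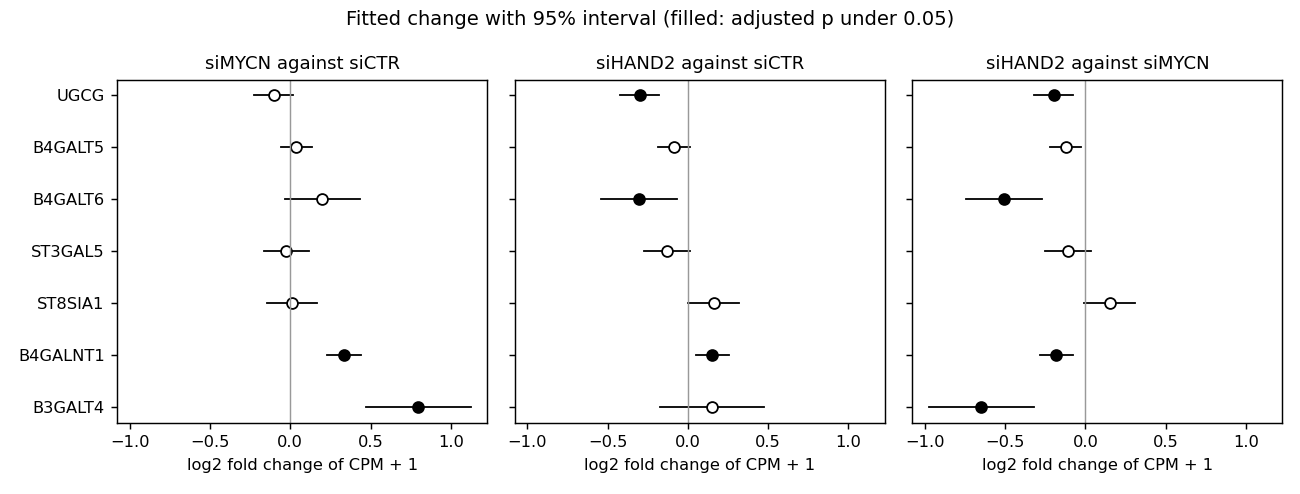
Fitted log2 fold changes of CPM + 1 with 95% intervals for the 7 tested enzymes in the 3 comparisons (limma, 3 libraries per group); filled points passed an adjusted p of 0.05. B4GALNT1 and B3GALT4 are raised in siMYCN, UGCG and B4GALT6 are lowered in siHAND2, and the 4 filled points in siHAND2 against siMYCN all lie below 0.

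ST8SIA1 and B4GALNT1 both take GM3, and the ratio of their transcripts within a library needs no scaling between libraries. The ratio of B4GALNT1 to ST8SIA1 CPM was 1.93, 2.03 and 2.19 in the control libraries, 2.59, 2.49 and 2.65 in siMYCN, and 2.29, 2.06 and 1.78 in siHAND2. All siMYCN libraries lay above all others. The siMYCN ratio was 1.26 times that of siCTR (two-sided exact permutation test, p = 0.1, the smallest that 3 libraries against 3 allow). Between siHAND2 and siCTR the ratio differed by less than the spread between libraries (log2 difference -0.01, exact permutation p = 1). Without siHAND2 replicate 3, which held the lowest ratio, that difference was 0.08, and without siCTR replicate 3 it was 0.04. siHAND2 lay at 0.790 times siMYCN (exact permutation p = 0.1, again the smallest possible).

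**Figure D4:**
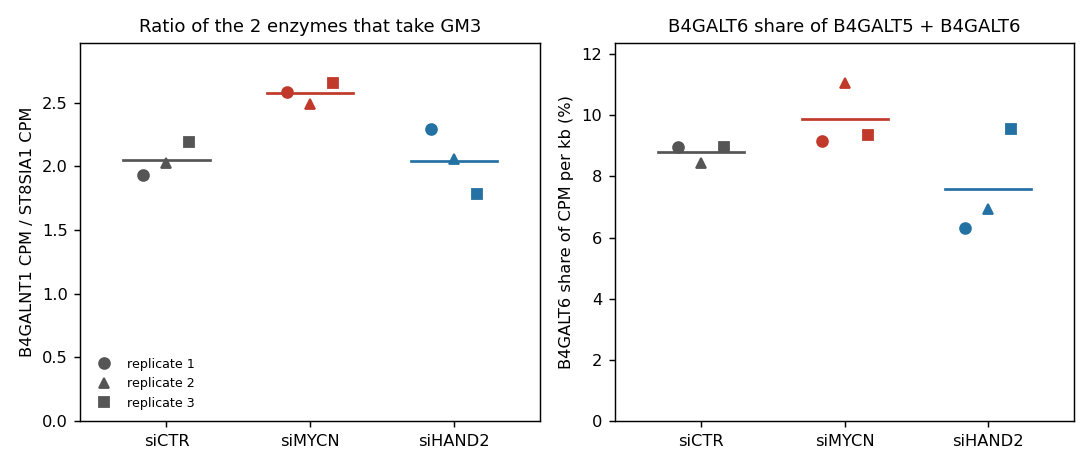
Left, the ratio of B4GALNT1 to ST8SIA1 CPM in each library; right, the share of B4GALT6 in the summed CPM per kb of B4GALT5 and B4GALT6 (%); lines are group means of 3 libraries and both axes start at 0. The siMYCN ratios lie between 2.49 and 2.65, above the 6 other libraries, and in the right panel siHAND2 replicate 3 (9.57%) lies above the other pair of its group.

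The genes around these enzymes were read from 6 lists with 62 genes, of which 55 had a row and 53 were tested. Of the 6 lists, 5 hold other genes of ganglioside metabolism, of its supply of ceramide and sugars, or of competing lipid branches. The remaining 1 holds 9 relatives of the enzymes that work mainly elsewhere. The lists were chosen with earlier results of these data known, so their shares describe the listed genes only. In siMYCN against siCTR, 15 of the 53 were called higher (28.3%) and 4 lower (7.55%). In siHAND2 against siCTR, 5 were called higher (9.43%) and 9 lower (17.0%), and in siHAND2 against siMYCN, 3 higher (5.66%) and 17 lower (32.1%). The shares over all tested genes are those given above for the enzymes. The relatives supplied 2 of the 15 higher calls in siMYCN, 3 of the 5 in siHAND2, and 2 of the 3 in siHAND2 against siMYCN. The median log2 change over the 53 genes was 0.06, -0.03 and -0.10. Without siCTR replicate 1, 9 rather than 14 of the genes were called in siHAND2 against siCTR; without siHAND2 replicate 3, 16 were.

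Ceramide is the lipid that UGCG takes up. Of 15 tested genes for ceramide synthesis and transport, 6 rose (40%) and 1 fell (6.67%) in siMYCN, and 0 rose and 4 fell (26.7%) in siHAND2. In siHAND2 against siMYCN, 0 were higher and 8 lower (53.3%). Over all tested genes, 24.5% were called higher and 11.4% lower in siMYCN, and 18.1% and 11.8% in siHAND2. In siHAND2 against siMYCN those shares were 11.4% and 15.5%. SPTLC2, a subunit of serine palmitoyltransferase, which starts sphingolipid synthesis, measured 144, 145 and 144 CPM in the control libraries and 107, 104 and 118 in siHAND2. It fell there by 0.40 on the log2 scale (standard error 0.05, adjusted p = 1.82e-05). CERS6, a ceramide synthase, averaged 162 ± 6.16 CPM in the control libraries and 132 ± 10.1 in siHAND2 (-0.30, adjusted p = 0.000368). SPTSSB, a small activating subunit of serine palmitoyltransferase, averaged 3.24 ± 0.416 CPM in the control libraries, 5.67 ± 0.255 in siMYCN and 3.25 ± 0.242 in siHAND2 (mean ± SD of 3 libraries). It rose in siMYCN (0.66, adjusted p = 9.71e-05). These calls held in all 18 alternatives.

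Downstream of GD2 and beside it, calls went both ways. Of 7 sialyltransferases that cap more complex gangliosides, 2 rose (28.6%) and 1 fell (14.3%) in siMYCN and 2 fell (28.6%) in siHAND2. The shares over all tested genes were 24.5% higher and 11.4% lower in siMYCN and 11.8% lower in siHAND2. ST6GALNAC3 measured 86.3, 92.1 and 85.8 CPM in the control libraries and 64.7, 62.6 and 70.6 in siHAND2 (-0.41, adjusted p = 2.31e-05). ST3GAL2 averaged 56.3 ± 1.10 CPM in the control libraries and 67.3 ± 2.49 in siMYCN (0.25, adjusted p = 0.00349). ST3GAL1 fell in both knockdowns, from 12.8 ± 0.870 CPM to 9.64 ± 0.987 in siMYCN (-0.38, adjusted p = 0.00388) and 10.35 ± 1.122 in siHAND2 (-0.29, adjusted p = 0.0249, a call lost in 4 of 18 alternatives). Of the competing branches, 4 of 8 genes were tested. UGT8, which makes galactosylceramide, fell in siMYCN from 6.32 ± 0.283 to 4.70 ± 0.340 CPM (-0.36, adjusted p = 0.00399). SGMS1, which turns ceramide into sphingomyelin, fell in siHAND2 from 14.01 ± 0.823 to 11.8 ± 0.567 CPM (-0.23, adjusted p = 0.0251, lost in 4 of 18).

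Of 8 genes that supply activated sugars, 2 rose in siMYCN (25.0%), and 1 rose and 1 fell in siHAND2 (12.5% each). Over all tested genes, 24.5% were called higher and 11.4% lower in siMYCN, and 18.1% and 11.8% in siHAND2. UGP2, which makes UDP-glucose, rose in both, from 29.6 ± 0.586 CPM to 38.5 ± 1.92 (0.37, adjusted p = 0.00011) and 36.0 ± 2.07 (0.27, adjusted p = 0.00176). GNE, the entry enzyme of sialic acid synthesis, rose in siMYCN from 95.2 ± 2.41 to 107.7 ± 3.32 CPM (0.18, adjusted p = 0.00595). NANS, the sialic acid synthase, fell in siHAND2 from 33.0 ± 1.03 to 26.3 ± 0.423 CPM (-0.32, adjusted p = 0.000878). Of 11 tested genes of breakdown, 3 rose in siMYCN (27.3%) and 1 in siHAND2 (9.09%), and 0 fell, beside those same shares over all tested genes. ASAH1, the acid ceramidase, rose by 0.19 in siMYCN (adjusted p = 0.0138) and 0.16 in siHAND2 (adjusted p = 0.0406), and GBA2, which splits glucosylceramide outside the lysosome, rose by 0.16 in siMYCN (adjusted p = 0.0362). The ASAH1 calls were lost in 5 and 9 and the GBA2 call in 8 of 18 alternatives, both rescalings among them.

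Among the relatives of the enzymes, each of the polysialyltransferases changed in 1 of the knockdowns. ST8SIA4, which builds polysialic acid on NCAM, measured 19.1, 20.3 and 19.6 CPM in the control libraries, 19.6, 23.2 and 21.1 in siMYCN, and 42.8, 40.7 and 44.2 in siHAND2. It rose in siHAND2 to 216% of the siCTR mean (1.07, standard error 0.06, adjusted p = 3.03e-09). ST8SIA2, the other polysialyltransferase, rose in siMYCN instead, from 18.9 ± 1.32 to 29.2 ± 0.875 CPM (0.60, adjusted p = 2.21e-06), and was 19.5 ± 0.5015 CPM in siHAND2. The direct comparison separated the knockdowns for both, by 0.97 for ST8SIA4 (adjusted p = 6.88e-09) and -0.56 for ST8SIA2 (adjusted p = 3.42e-06). ST8SIA3 rose in both, from 67.9 ± 3.11 CPM to 78.7 ± 4.93 (0.21, adjusted p = 0.00565) and 85.3 ± 2.885 (0.32, adjusted p = 0.000209). In all, 2 of the 8 tested relatives rose (25.0%) and 1 fell (12.5%) in siMYCN, and 3 rose (37.5%) and 1 fell (12.5%) in siHAND2. Over all tested genes, 24.5% were called higher and 11.4% lower in siMYCN, and 18.1% and 11.8% in siHAND2.

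**Figure D5:**
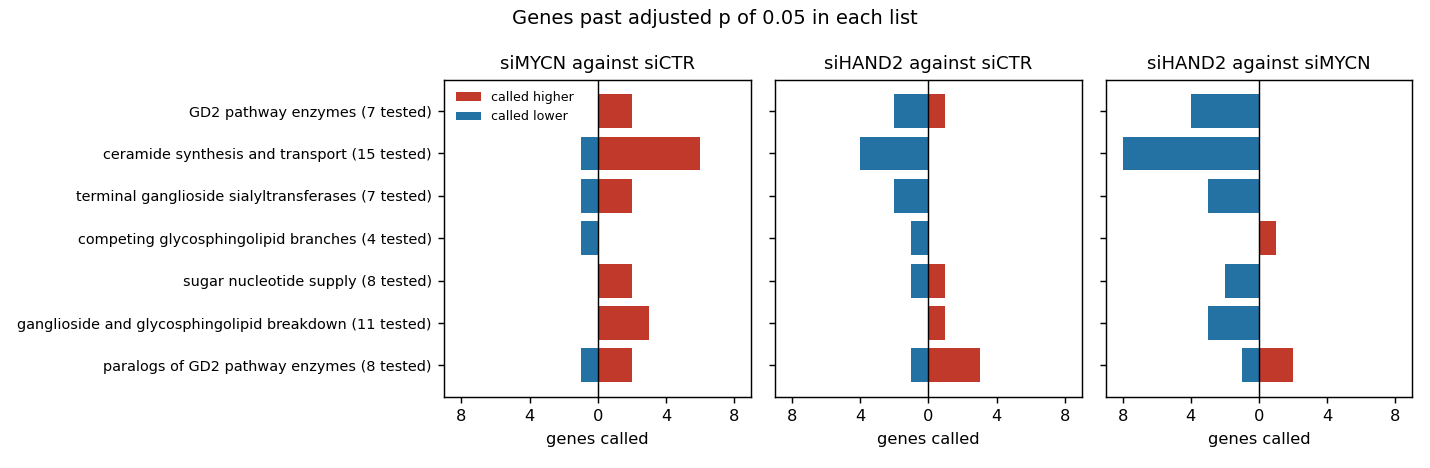
Number of genes called higher (right of 0) and lower (left of 0) at an adjusted p of 0.05 for the 7 tested enzymes and the 6 pathway lists, in the 3 comparisons; the number tested is given with each list. Ceramide synthesis and transport has 6 higher in siMYCN, 4 lower in siHAND2 and 8 lower in siHAND2 against siMYCN. The shares over all tested genes were 24.5%, 11.8% and 15.5% for these 3 directions.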

How the data were processed

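Total RNA of 9 LAN5 libraries was sequenced. The authors deposited 1 table of CPM values, with 0.0001 added to every value. Per the submitters' processing notes, STAR 2.5.1 and Partek were used and the builds hg19 and GRCh37 are named. The gene coordinates in the table match GRCh38 instead: 91.4% of 18215 symbols started within 5000 bases of their GRCh38 position and 5.62% of 18635 of their GRCh37 position. Coordinates are therefore given as GRCh38, counted from 1. The counting tool, strand use and annotation are not given in the sources used here.

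Low CPM values (at most 20 steps) were whole multiples of a common step, within 0.02, in only 79.0% to 80.5% of cases, so no count model was used. limma 3.58.1 in R 4.3.3 (intensity trend, two-sided) was fitted to log2(CPM + 1) with 1 mean per group over all 9 libraries, after testing on simulated data. Standard errors and intervals are those of limma, and intervals from depth cover counting error only. Transcript lengths came from GENCODE v44lift37 by symbol. The enzymes and lists were chosen with earlier results of these data known. All 8 enzymes were named, and up to 3 genes per list (smallest p among those called against siCTR), besides the 3 genes most like ST8SIA1 and B4GALNT1; the values of 1 gene so chosen are not reported here.

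Alternatives were pseudocounts of 0.1 and 5, no filter, a filter of 5 CPM, quantile normalization, median-ratio rescaling, the compared groups alone, no intensity trend, the replicate number as a block, and each library left out. The merged exon length was added after seeing the data. Replicate numbers come from the titles. Deviations from group means of same-numbered libraries correlated at 0.102 to 0.266 between siCTR and either knockdown, and at 0.434, -0.129 and 0.245 between siMYCN and siHAND2. These values do not settle whether the libraries were paired. The main fit has no block, and the fit with a block is given below.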

Additional observations from a re-analysis of the deposited data

How the results depend on the processing

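Over the whole table the counts of called genes stayed within 1.5 times of 5209 (siMYCN) and 4339 (siHAND2) against siCTR, and of 3892 between the knockdowns, in every alternative run. With the replicate number as a block the counts were 5895, 5089 and 4689 genes and 2, 3 and 5 enzymes; the block added B4GALT5 in siHAND2 against siMYCN and changed no other call among the enzymes. In 14 of 18 comparisons between groups a library correlated best with its own number among the 3 libraries of the other group. Each pair of groups was compared from both sides with the same correlations, so the 18 are not independent. The count is at most a hint that same-numbered libraries are related and does not settle it. If they are related, the fit with the block would be the fitting one.

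Of the enzymes, 1 rather than 2 was called in siMYCN with a filter of 5 CPM, which removes B3GALT4, and 1 rather than 3 in siHAND2 with no intensity trend. Leaving out single libraries gave 2 to 3 enzymes in siMYCN, 1 to 3 in siHAND2 and 2 to 5 in siHAND2 against siMYCN. It gave 9 to 16 genes of the 6 lists in siHAND2 against siCTR. Signs turned for values near 0: in siMYCN, B4GALT5 was -0.0204 and -0.0198 and ST8SIA1 -0.0453 and -0.0528 after median-ratio and quantile rescaling. ST8SIA1 was -0.0118 without siCTR replicate 3 and -0.0175 without siMYCN replicate 2, and at most 0.0348 with any other library left out. The log2 difference in the B4GALNT1 to ST8SIA1 ratio between siHAND2 and siCTR ran from -0.0971 to 0.0842 with single libraries left out; it was 0.0381 without siCTR replicate 3. The cause was not tested. Depth limits ST8SIA5 and B3GALT4 most.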
